A study of Mus musculus with 9 samples.

Results

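Acetylation of histone H3 at lysine 27 (H3K27ac) was compared between forelimb buds of wild type (WT) and Shh-/- mouse embryos, the latter unable to make the Sonic hedgehog (SHH) ligand. The comparison used 6 of the 9 libraries of the series: 2 H3K27ac libraries and 1 input for each genotype, all from E10.5 embryos at 33 to 34 somites. The members described are the peaks of 2 deposited lists, 25096 WT peaks and 32085 Shh-/- peaks, and a peak was taken as found in the other genotype when at least 1 bp overlapped. Each immunoprecipitation used 1 pair of limb buds (MicroChIP-seq, a protocol for small cell numbers). The methods describe the WT embryos as littermates of the Shh-/-;Gli3-/- embryos, typed as carrying neither mutation. They do not say whether the Shh-/- embryos came from the same litters, nor give the Gli3 genotype of the Shh-/- embryos. The labels give the strain background as mixed for each sample, while the methods place the Shh null allele on Swiss Webster. The allele is a constitutive null, so every cell of the embryo lacked the ligand and whole buds, not posterior pieces, were compared. Genotypes were taken from the sample titles, since the separate genotype field gives wild type throughout, for mutants too. Each genotype has 1 list with no value per replicate. No difference below could therefore be set against the spread between embryos, and no p-value is given.

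H3K27ac marks active promoters and enhancers. SHH is made in the posterior margin of the limb bud and sets digit number and identity. It acts by stopping the processing of GLI3 into a transcriptional repressor and by allowing full-length GLI proteins to activate targets such as Gli1 and Ptch1. In a bulk sample of a limb bud, a smaller number of acetylating cells and less acetylation per cell cannot be told apart, and a peak missing from a list is one that was not called, which is not the same as an absence of the mark. The region over Shh itself held no peak in either list, within 50 kb of the gene, so the deletion could not be checked from the peaks.

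Sequences under some of the peaks that carry the comparison are shown first, as 300 bp windows centred on the deposited position of the peak maximum, read from the plus strand of GRCm38 (sequence from RefSeq; GRCm38 is the assembly that mm10 denotes). Capitals mark GACCACCCA, the sequence bound by GLI proteins, its first 8 letters GACCACCC, CCAATAAA, a sequence bound by HOX13 proteins, or CATCTG, an E-box of the kind bound by bHLH factors such as HAND2, each on either strand. The first 3 windows lie under WT peaks without a Shh-/- peak. They are the best ranked unmatched peaks in or close to Ptch1, Hand2 and Hoxd13, picked after the peaks were seen. Their ranks were 8183, 11618 and 11713 of 25096, so those at Hand2 and Hoxd13 lay near the middle of the list.
Ptch1 intron, best ranked unmatched peak (chr13:63567726-63568025): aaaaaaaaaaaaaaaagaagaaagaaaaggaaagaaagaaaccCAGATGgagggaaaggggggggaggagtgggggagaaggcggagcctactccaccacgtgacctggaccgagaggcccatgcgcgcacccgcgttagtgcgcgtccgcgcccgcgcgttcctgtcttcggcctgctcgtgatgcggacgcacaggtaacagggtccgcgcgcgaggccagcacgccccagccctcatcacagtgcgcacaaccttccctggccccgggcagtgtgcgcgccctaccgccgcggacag
Hand2 gene body (chr8:57323176-57323475): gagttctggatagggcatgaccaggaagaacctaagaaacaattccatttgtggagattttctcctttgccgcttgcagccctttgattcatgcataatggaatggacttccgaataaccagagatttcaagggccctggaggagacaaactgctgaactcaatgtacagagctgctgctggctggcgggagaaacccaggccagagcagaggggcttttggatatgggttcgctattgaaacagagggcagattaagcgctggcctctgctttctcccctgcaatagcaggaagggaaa
Between Hoxd13 and Hoxd12 (chr2:74672926-74673225): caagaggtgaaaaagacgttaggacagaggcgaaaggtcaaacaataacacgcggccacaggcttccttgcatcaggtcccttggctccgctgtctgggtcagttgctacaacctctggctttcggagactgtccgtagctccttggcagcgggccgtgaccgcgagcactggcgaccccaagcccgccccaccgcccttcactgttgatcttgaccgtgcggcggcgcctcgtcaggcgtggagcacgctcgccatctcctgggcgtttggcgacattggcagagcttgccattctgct
The next 2 windows lie under the best ranked Shh-/- peaks without a WT peak around Alx4 and Msx2. They lie in an intron of Alx4 and downstream of Msx2, at loci with more covered bp in Shh-/-. Peaks numbered 3 in WT and 26 in Shh-/- around Alx4, and 9 and 12 around Msx2.
Alx4 intron (chr2:93645926-93646225): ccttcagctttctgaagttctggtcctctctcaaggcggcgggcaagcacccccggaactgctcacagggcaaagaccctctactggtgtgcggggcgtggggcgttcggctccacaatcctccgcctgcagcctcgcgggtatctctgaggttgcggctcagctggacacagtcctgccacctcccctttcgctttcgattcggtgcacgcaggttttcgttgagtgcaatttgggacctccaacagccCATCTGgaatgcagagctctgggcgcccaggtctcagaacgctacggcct
Downstream of Msx2 (chr13:53466026-53466325): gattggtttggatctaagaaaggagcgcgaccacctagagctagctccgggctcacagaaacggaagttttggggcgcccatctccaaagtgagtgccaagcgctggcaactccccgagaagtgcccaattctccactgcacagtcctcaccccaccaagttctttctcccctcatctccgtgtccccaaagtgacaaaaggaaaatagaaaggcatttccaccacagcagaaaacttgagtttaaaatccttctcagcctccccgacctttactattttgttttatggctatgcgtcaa
The last window lies under a strong intergenic WT peak without a Shh-/- peak, in which the GLI sequence occurs 9 times in a tandem repeat.
Intergenic repeat on chromosome 4 (chr4:152893576-152893875): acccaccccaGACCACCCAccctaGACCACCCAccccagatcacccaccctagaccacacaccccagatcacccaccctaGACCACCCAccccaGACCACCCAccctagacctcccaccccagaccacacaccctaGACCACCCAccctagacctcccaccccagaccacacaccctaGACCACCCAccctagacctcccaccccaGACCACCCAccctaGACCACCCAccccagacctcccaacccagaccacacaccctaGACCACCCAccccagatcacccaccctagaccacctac
A window without capitals held none of the letters searched. Other unmatched peaks lay at these genes whose windows are not printed, so the printed windows do not show which letters each gene's peaks held.

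Most WT promoter peaks had a Shh-/- counterpart and most WT distal peaks did not. A peak was a promoter peak when it overlapped a window around a protein-coding transcript start, reaching 2 kb before and 1 kb past it, and distal otherwise. Of 13429 WT promoter peaks, 84.7% (11369 peaks, 95% Wilson interval 84.0 to 85.3%) overlapped a Shh-/- peak. Of 11667 WT distal peaks, 39.0% did (4550 peaks, 38.1 to 39.9%). Unmatched WT peaks, those that no Shh-/- peak overlapped, numbered 9177 (36.6% of the WT list), and 7117 of them were distal. The mirror shares were lower. They were 71.6% (70.9 to 72.3%) for 15598 Shh-/- promoter peaks and 26.5% (25.8 to 27.1%) for 16487 Shh-/- distal peaks, and 51.6% of the longer Shh-/- list had no WT peak. Wilson intervals cover counting error over peaks only.

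The gap between promoter and distal peaks held at every rank. Each list was divided into 5 parts of equal size by the order in which the authors ranked the peaks. In the first part, 99.3% of WT promoter peaks and 93.3% of WT distal peaks (90.9 to 95.1%) overlapped a Shh-/- peak. In the third part the shares were 78.9% and 40.6%, and in the last part 54.8% and 23.4%. The first part of the WT list held only 38 distal and 30 promoter peaks without a Shh-/- peak. In the Shh-/- list the first part held 172 distal and 142 promoter peaks without a WT peak, and there 82.4% of distal peaks (79.9 to 84.7%) were shared.

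**Figure D1:**
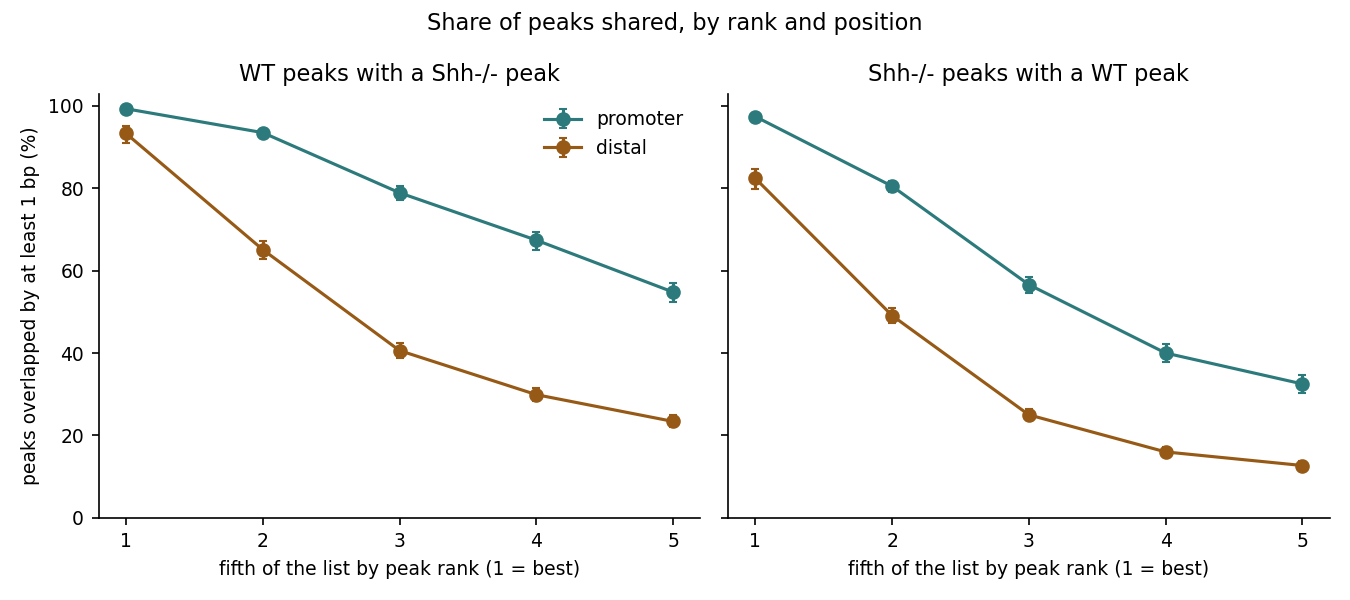
Share of peaks (%) of 1 list overlapped by at least 1 bp by the other, in 5 equal parts of each list by rank (1 is best), for promoter and distal peaks; bars are 95% Wilson intervals. Promoter peaks lie above distal peaks in all 5 parts of each list, and WT distal peaks go from 93.3% in the first part to 23.4% in the last.

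Width separated the peaks in the same way. Every WT peak of at least 2 kb (347 of 347) and 1869 of 1872 from 1 kb to just under 2 kb overlapped a Shh-/- peak, against 50.3% of those under 500 bp. Unmatched WT peaks were narrow, with a median of 150 bp in promoters and 150 bp at distal sites, where matched peaks had medians of 450 and 250 bp. Their median log2 fold over the WT input was 2.41 in promoters and 2.40 at distal sites, against 3.24 and 2.70 for matched peaks. An FDR below 0.05 was met by 36.6% of the unmatched promoter and 33.3% of the unmatched distal peaks. Many of these peaks lay beside a Shh-/- peak: 68.7% of the 2060 promoter peaks and 25.2% of the 7117 distal peaks had one within 0.5 kb. Beyond 50 kb from any Shh-/- peak lay 160 promoter peaks and 1531 distal peaks (21.5%).

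The widest WT peaks were mostly kept over their length. Median coverage of a WT peak of at least 2 kb by Shh-/- peaks was 91.1%, although 166 of the 347 (47.8%) were met by several narrower Shh-/- peaks. Only 3 were covered over less than 50% of their length. These were the peak over the Hes1 gene, a transcriptional repressor of the HES family (2150 bp, chr16:30065400-30067549, 37.2%), the peak over the paired histone genes Hist1h2ab and Hist1h3b (2600 bp, 40.4%) and the peak over the 5′ exons of Ptch1 (3600 bp, chr13:63562700-63566299, 44.4%). Next in order came peaks over Ywhag (51.1%), at Slc3a2 (55.0%), Hsp90aa1 (56.1%), Hist1h3a (57.6%), an intergenic site 57.8 kb from the Zfp532 start (58.0%), Rps9 and Tmem200b (59.6% each). Of these 10 peaks, 9 were promoter peaks, as were most WT peaks of this width (34 of the 347 were distal).

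Of the 352 Shh-/- peaks of at least 2 kb, 13 were covered over less than 50% of their length in WT. The least covered lay 2.88 kb from the start of Twist1, a mesenchymal bHLH factor (2050 bp, 17.1%). It was followed by the peak over Mab21l2 inside the Lrba gene (2400 bp, 18.8%) and an intergenic peak 36.2 kb from Tbx5, the forelimb T-box factor (2350 bp, 31.9%). Others lay over Mir125b-1 (3850 bp, 33.8%), 9.88 kb from Dusp7 (37.2%), over Arhgef25 (37.5%), in an intron of Actn1 (38.6%), over Lrp1 (41.7%), in Zfhx4 (41.9%) and over a coding exon of Lhx2, a LIM homeobox gene of the distal limb mesenchyme (3450 bp, 42.0%). Of these 10, 7 were distal, against 1 of the 10 WT peaks above. Among all peaks of at least 2 kb, 38 of 352 in Shh-/- and 34 of 347 in WT were distal.

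Some single peaks of high rank had no peak of the other list within 1 kb. In WT the best ranked promoter peaks of this kind lay at Sry, Zmat3, Tspan13, Zfp738 and Zfp937, with log2 folds over input from 3.65 to 4.33 and widths from 350 to 450 bp. The best ranked distal ones lay in Xist (900 bp), 19.1 kb from Shisal2a (1100 bp), in introns of Galnt17 and Calr4, and in a noncoding transcript 111 kb from Dusp6, an FGF response gene. In the Shh-/- list the promoter peaks lay near Sulf2, which edits heparan sulfate, and at Bmf, a BH3-only protein that promotes cell death, Zfp672, Sept5 and Rab43, with log2 folds from 4.54 to 4.81. The distal ones lay in introns of Dpp9 and Plxdc2, near Fndc5 and Brd7, and 3.83 kb from the start of Scx, the tendon progenitor bHLH gene, where the peak was 800 bp wide (chr15:76461350-76462149).

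Peaks were then summed per gene, as the number of bp covered within the gene span plus or minus 50 kb. Of 21910 protein-coding genes, 11892 had at least 1 kb covered in either list. Among these, 92 genes (0.774%) had at least 2-fold less cover in Shh-/- and 1130 (9.5%) at least 2-fold more. The median log2 ratio of Shh-/- to WT, with 100 bp added to each value, was 0.26, and the Shh-/- list covered 12.9 Mb against 10.4 Mb in WT. The 2-fold threshold was applied to the bp without this addition. With only the 25096 best ranked Shh-/- peaks, 169 of 11662 genes (1.45%) were lower and 856 (7.34%) were higher, around a median of 0.19. All 92 lower genes remained lower, as they had to, since this step leaves the WT list whole and only removes Shh-/- peaks. With the Shh-/- list shortened to the covered length of the WT list, 430 genes were lower and 457 higher around a median of 0.05. This setting kept the 16846 best ranked Shh-/- peaks against all 25096 WT peaks, so weak peaks were removed from 1 list only. The lower genes were thus 7.53% of the genes past 2-fold with the lists as deposited, 16.5% with equal numbers and 48.5% with equal covered length. The balance between lower and higher genes thus moved with the length of the lists, and genes are described below beside the median of 0.26.

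**Figure D2:**
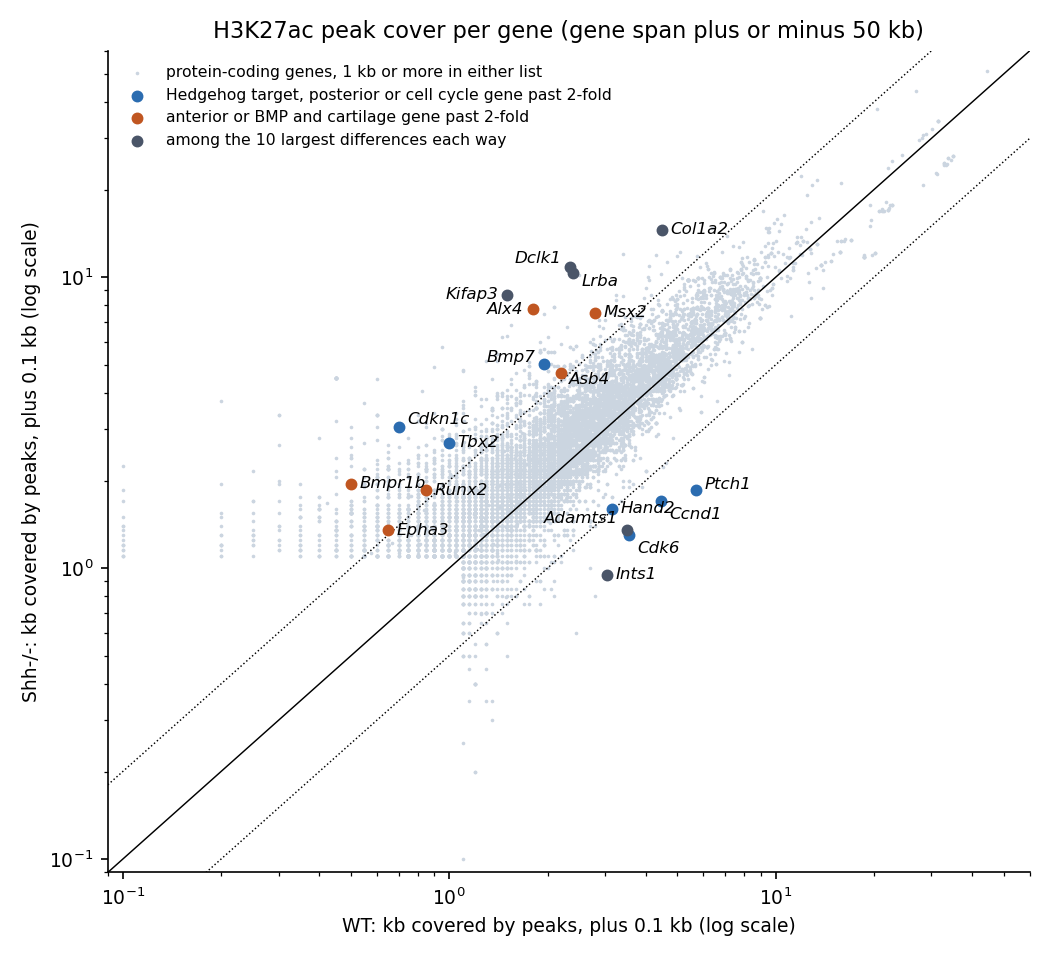
Covered kb per gene in WT (x axis) and Shh-/- (y axis), both on log scales with 0.1 kb added, for genes with at least 1 kb in either list; the solid line marks equal cover and the dotted lines a 2-fold difference. Most genes lie along the solid line, with Ptch1, Ccnd1, Cdk6, Adamts1 and Ints1 below the lower dotted line, Hand2 at it, and Col1a2, Dclk1, Kifap3, Alx4 and Msx2 above the upper one.

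The direct feedback targets of the pathway had fewer peaks at their own genes in Shh-/-. Of 4 listed genes, 3 had 1 kb of cover, 1 was past 2-fold lower and none higher, and the median log2 ratio was -0.43 (-0.46 with equal numbers of peaks and -0.80 with equal covered length). Ptch1, the SHH receptor that restrains signalling, had 5600 bp of peaks in WT and 1750 bp in Shh-/-, a log2 ratio of -1.62. It was the largest difference in bp among the 92 lower genes. It was seen in promoter peaks (4200 to 1250 bp) and in distal peaks (1400 to 500 bp). Of the 11 WT peaks around Ptch1, 10 had no Shh-/- counterpart, against 36.6% of all and 61.0% of distal WT peaks. The eleventh, the 3600 bp peak over its 5′ exons, ranked 726 in WT and was met by 5 separate Shh-/- peaks of at most 750 bp, the best of which ranked 11436. Unmatched WT peaks also stood next to the start of the longest transcript, at 0.4 and 0.7 kb (200 bp each), and in introns at 5.2 to 6.9 kb from it.

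Gli1, the transcription factor whose expression reports pathway activity, had 6 WT peaks at its 5′ end, from 2.4 kb downstream to the start site, and no Shh-/- peak. Within 10 kb of the gene this was 1500 bp against 0 bp. The best of them, 500 bp over the first exon, ranked 4711, and the others were 100 to 300 bp wide. Those of 150, 100 and 200 bp did not meet an FDR below 0.05 (0.0998, 0.297 and 0.254). In the wider window Gli1 had 6850 bp in WT and 5050 bp in Shh-/-, and outside the 10 kb around the gene the peaks lay at Mbd6, Ddit3, Mars and R3hdm2, so the log2 ratio of -0.43 there includes the neighbours. Hhip, a ligand-binding antagonist, had 0 bp in either list.

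The other parts of the pathway were not lower past 2-fold. Of 12 tested ligand, receptor and transducer genes, 0 were lower and 2 were higher, around a median log2 ratio of 0.20. With equal numbers of peaks and with equal covered length 1 was higher, Cdon. The effectors Gli2 (7050 and 7000 bp) and Gli3 (7050 and 7200 bp), the signal transducer Smo (2700 and 2800 bp) and the inhibitor Sufu (4200 and 4100 bp) were nearly equal. The coreceptors were on the higher side. Cdon went from 1800 to 5500 bp (log2 1.56). Of its 16 Shh-/- peaks, 12 were unmatched in WT and 15 were distal, and 73.5% of all distal Shh-/- peaks were unmatched. Boc had 1300 and 2450 bp (0.87) and Gas1 had 4450 and 6795 bp (0.60). Disp1, which releases the ligand, went from 2700 to 5750 bp (1.06), but was under 2-fold with equal numbers of peaks (0.89). Cdon, Boc and Gas1 are known as genes that SHH signalling represses, and the part of this in their cover was not tested.

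Among 15 posterior genes, 9 were tested, 1 was lower and 2 were higher, around a median of -0.06. With equal covered length 2 were lower and 0 higher, around -0.25. Hand2, the bHLH factor that turns on Shh in the posterior bud, had 3050 bp in 7 WT peaks and 1500 bp in 2 Shh-/- peaks (log2 -0.98). It was the 1 lower gene, but was under 2-fold at an FDR below 0.05 (2850 and 1500 bp) and within 10 kb (2950 and 1500 bp). The peak over its promoter was kept whole (1100 bp in WT, 1300 bp in Shh-/-), and the difference lay downstream of it. There a WT peak of 1150 bp over the gene body (chr8:57322450-57323599) and 4 peaks of 100 to 300 bp from 3.0 to 13.2 kb had no counterpart. Hes1, a target of SHH in the bud, had 5800 and 3800 bp (-0.60), and Fmn1, whose introns hold enhancers of Grem1, had 2300 and 1200 bp (-0.88), with none of its 12 WT and 5 Shh-/- peaks shared. Only narrow peaks made up the Fmn1 value, and with peaks at an FDR below 0.05 its log2 ratio turned to 0.31. The others were higher or nearly equal. Tbx2 had 900 and 2600 bp (log2 1.43) and the ligand gene Bmp7 1850 and 4950 bp (1.37), while Tbx3 had 3000 and 2650 bp. Grem1, Bmp2, Osr1, Jag1 and Prdm1 had under 1 kb in each list and were not tested. Cyp1b1, an enzyme gene with 900 bp in 4 WT peaks and 100 bp in Shh-/-, was also under that minimum.

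At the Hoxd cluster, whose 5′ genes pattern the digits, the 8 WT peaks nearest the Hoxd13 start had no Shh-/- peak. Unmatched WT peaks of 150 to 350 bp also lay over Hoxd10 and Hoxd8, among matched ones. The genes share neighbours within 50 kb, so the listed values of Hoxd9 to Hoxd13 (20600 to 22100 bp in WT, 16800 to 17150 bp in Shh-/-) are nearly the same sum. The cluster was therefore divided at the midpoints between neighbouring genes, a division chosen after the peaks were seen. In the territories of Hoxd13, Hoxd12 and Hoxd11 together, 12 WT peaks covered 3200 bp and 3 Shh-/- peaks covered 1171 bp. In those of Hoxd10, Hoxd9 and Hoxd8 the totals were 13050 and 12229 bp. By gene, Hoxd13 had 250 and 0 bp, Hoxd12 had 0 bp in either list, Hoxd11 had 2950 and 1171 bp, Hoxd10 had 4167 and 4529 bp, Hoxd9 had 4433 and 4100 bp, and Hoxd8 had 4450 and 3600 bp. Of the WT peaks from 14.5 to 18.8 kb downstream of the Hoxd13 start, over Hoxd11, the widest was 750 bp and none had a Shh-/- peak.

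In the Hoxa cluster, divided in the same way, Hoxa11 had 3169 and 3500 bp, Hoxa10 6081 and 6806 bp, Hoxa9 7872 and 7666 bp, and Hoxa13 had no peak in either list. In the list of 10 genes that holds the 5′ Hox genes and Evx2, 0 were past 2-fold in either direction and the median log2 ratio was -0.28. Hoxd1, at the other end of its cluster, was among the named lower genes (4420 and 2120 bp, log2 -1.03), and the difference lay over Hoxd3, part of whose peaks the edge of the window cuts off, since within 10 kb of Hoxd1 there were 270 and 220 bp.

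**Figure D3:**
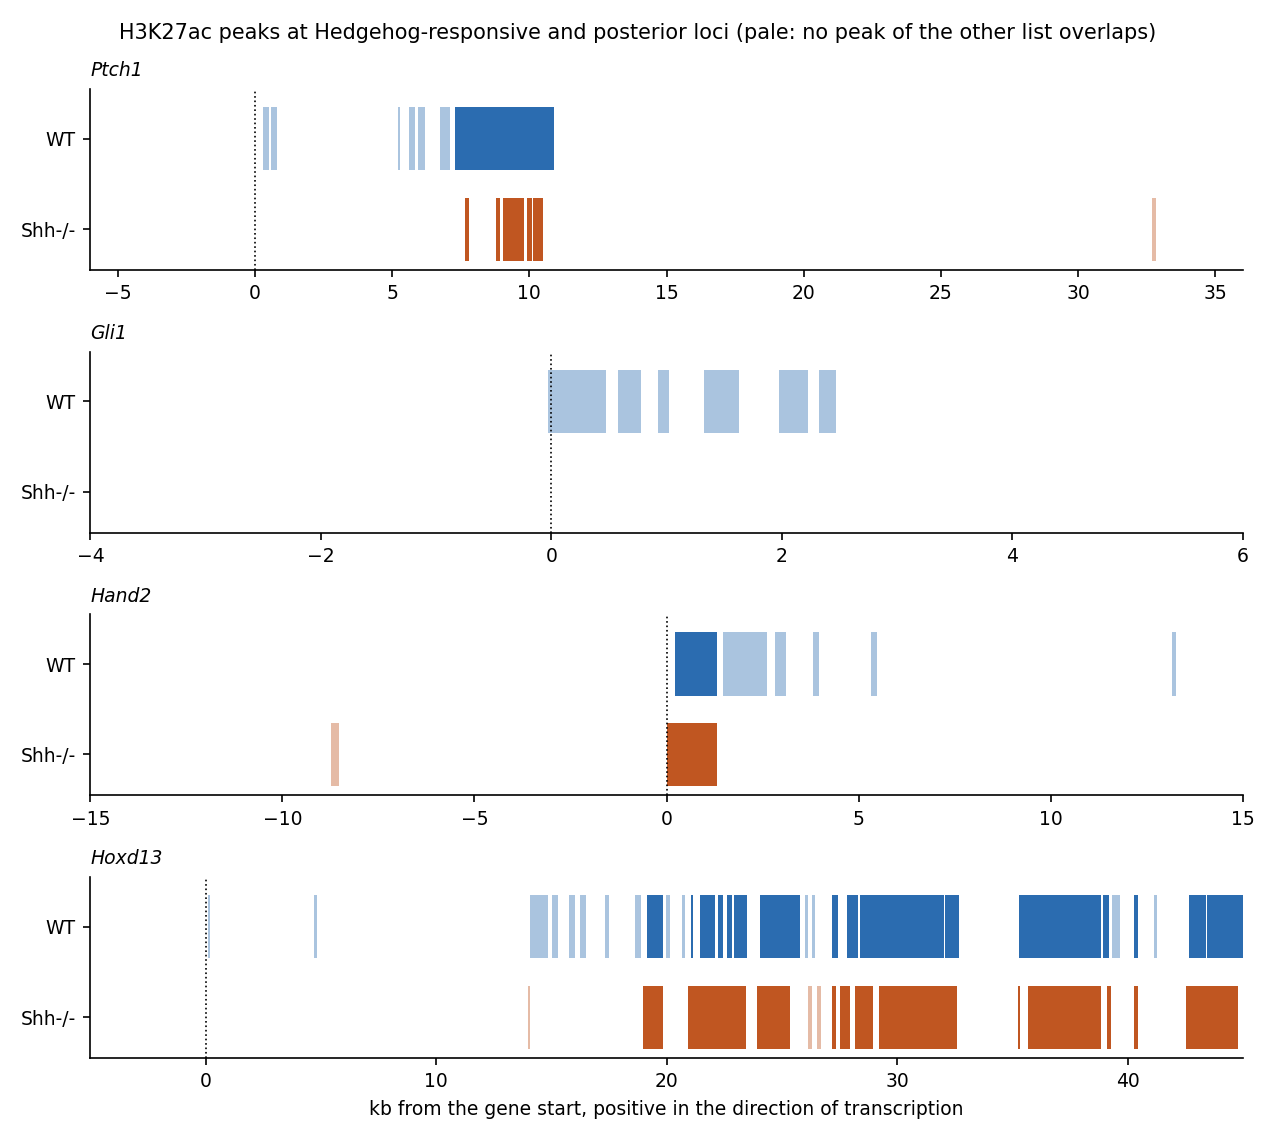
H3K27ac peaks of WT (upper track, blue) and Shh-/- (lower track, orange) at Ptch1, Gli1, Hand2 and Hoxd13, by distance in kb from the gene start in the direction of transcription; bars are peaks drawn to scale and pale bars have no overlapping peak in the other list. The 6 Gli1 peaks and the WT peaks from Hoxd13 to Hoxd11 are pale, while the Hand2 promoter peak and the wide peaks from Hoxd10 on are shared. The outlying WT peaks of Ptch1 and the outer ends of the Hand2 and Hoxd13 windows lie outside the axes.

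Cell cycle genes lay on the lower side of the median of all genes. Of 8 tested, 2 were lower and 1 was higher, the median log2 ratio was -0.21 (-0.33 with equal numbers of peaks and -0.56 with equal covered length, where 3 were lower), and 7 of the 8 lay below the median of all genes. Ccnd1, the G1 cyclin D1, had 4350 bp in WT and 1600 bp in Shh-/- (log2 -1.39). Of its 9 WT peaks, 5 had no Shh-/- peak, among them 750 bp over its 5′ exon, against 36.6% of all WT peaks. Cdk6, a kinase partner of D cyclins, had 3450 and 1200 bp (-1.45). A 1500 bp WT promoter peak over its coding exon was met by a single 100 bp peak in Shh-/-, which covered 6.67% of it. Ccnd2 had 3300 and 1800 bp (-0.84), with the 1150 bp promoter peak met by 2 narrower ones, and Mycn had 4000 and 2900 bp (-0.45). Myc (2250 and 2300 bp), Ccne1 (2050 and 2200 bp) and E2f1 (2000 and 2150 bp) were nearly equal. Cdkn1c, a CDK inhibitor, stood on the other side with 600 and 2950 bp (log2 2.12). Of its 9 Shh-/- peaks, 7 had no WT peak, against 51.6% of all Shh-/- peaks.

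Most anterior genes lay above the median of all genes. Of 6 tested, 0 were lower and 3 were higher, and 5 lay above the median of all genes and 1 below it. The list median log2 ratio was 0.96, against 0.26 for all genes. It was 0.89 against 0.19 with equal numbers of peaks and 0.57 against 0.05 with equal covered length. The higher genes fell to 2 with equal numbers, where Asb4 was under 2-fold (0.92), and to 1, Alx4, with equal covered length. Alx4, the anterior homeobox gene that restricts Shh to the posterior bud, had 3 peaks and 1700 bp in WT and 26 peaks and 7650 bp in Shh-/- (log2 2.11). Of these Shh-/- peaks, 24 had no WT counterpart, and 23 of the 26 were distal. Among all distal Shh-/- peaks, 73.5% had none. The Alx4 peaks stood in an intron, from 2.1 to 6.6 kb, and upstream, mostly from -26.7 to -10.3 kb. The promoter peak was 1300 bp wide in WT (rank 3987) and 1650 bp in Shh-/- (rank 1034). Asb4 had 2100 and 4600 bp (1.10), with all 6 WT peaks shared, and Epha3 had 550 and 1250 bp (1.05). Irx3 (2350 and 4350 bp, 0.86) was higher by less than 2-fold. Foxf1 and Hand1 were under 1 kb in each list, with 0 and 200 bp in WT and 400 and 700 bp in Shh-/-.

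BMP and cartilage genes also lay above the median of all genes. Of 13 tested, 0 were lower and 3 were higher, and 11 of the 13 lay above it, around a list median of 0.75. The list median was 0.60 with equal numbers of peaks and 0.19 with equal covered length, against 0.19 and 0.05 for all genes. Msx2, a homeobox target of BMP signals in the anterior and distal margin, had 2700 and 7450 bp (log2 1.43). All 9 of its WT peaks were found in Shh-/-, where the matching peaks were mostly wider. There 5 of the 12 Msx2 peaks had no WT peak, against 51.6% of all Shh-/- peaks. The WT peaks of 100 and 300 bp in its intron met a single Shh-/- peak of 1600 bp. Bmpr1b, a BMP receptor, had 400 and 1850 bp (1.96) and Runx2, the bone factor, 750 and 1750 bp (1.12). With equal numbers of peaks Runx2 was under 2-fold (0.61), which left 2 higher genes, and 2 were higher with equal covered length. The ligand Bmp4 (1950 and 3500 bp, 0.81), Msx1 (4800 and 7950 bp, 0.72), Sox5 (3500 and 6750 bp, 0.93), Sox6 (3100 and 6050 bp, 0.94), Gdf5 (1450 and 2500 bp, 0.75) and Col2a1 (3050 and 4300 bp, 0.48) were higher by less than 2-fold. Sox9, which drives cartilage condensation, was nearly equal (1250 and 1300 bp), and Id2 had 6400 and 5900 bp.

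**Figure D4:**
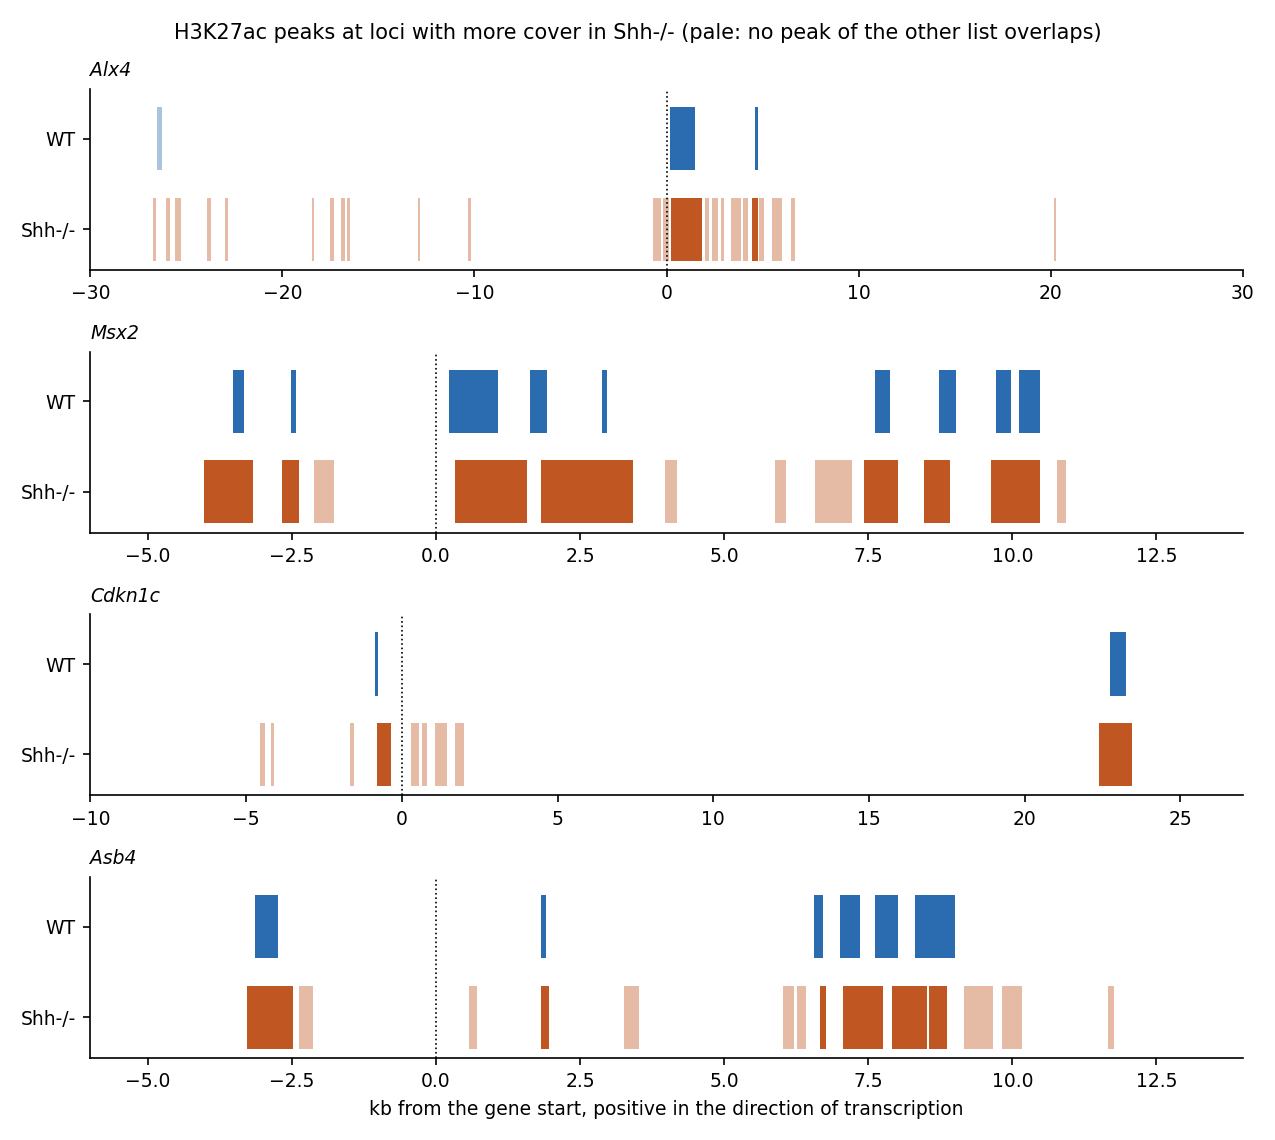
H3K27ac peaks of WT (upper track, blue) and Shh-/- (lower track, orange) at Alx4, Msx2, Cdkn1c and Asb4, by distance in kb from the gene start in the direction of transcription; pale bars have no overlapping peak in the other list. At Alx4 22 of the 24 Shh-/- peaks drawn are pale (the outermost 2 lie outside the axis), while at Msx2, Cdkn1c and Asb4 every WT peak is shared.

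Genes of the limb field and of FGF signalling lay close to the median of all genes. Of 9 tested proximal and limb field genes, none was past 2-fold either way, around a median of 0.24. Meis1 had 12400 and 13100 bp, Tbx5 15750 and 20950 bp, Shox2 5850 and 7400 bp and Prrx1 6900 and 10050 bp. Of 11 FGF ligand, receptor and response genes, none was past 2-fold, around a median of 0.30: Fgf10 had 2750 and 2300 bp, Dusp6 7900 and 8600 bp and Spry2 3700 and 4400 bp. The 10 broadly active genes, such as Gapdh (5700 and 5450 bp) and Eef1a1 (4650 and 4500 bp), also had none past 2-fold, around a median of 0.11. With equal covered length the medians of the limb field and broadly active genes turned to -0.20 and -0.05, and that of the FGF genes was 0.03, with 1 of them, the ligand gene Fgf10, then lower (2750 and 1200 bp, log2 -1.13).

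**Figure D5:**
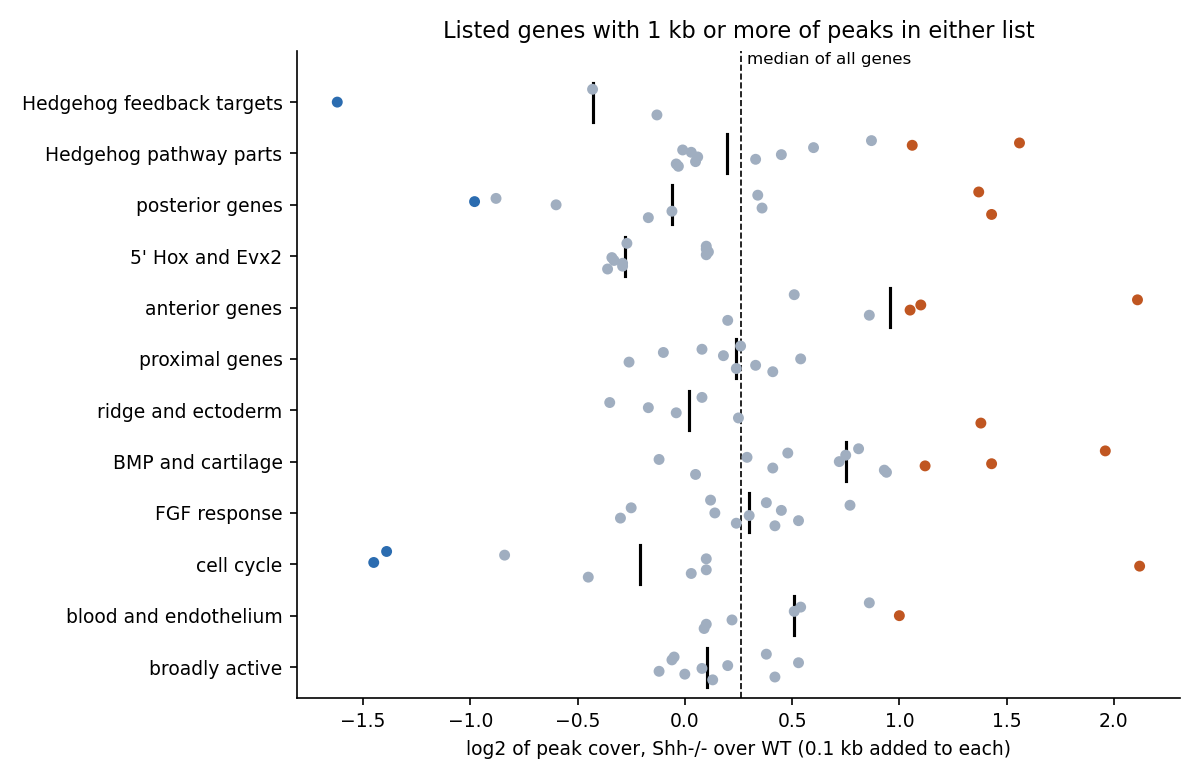
Log2 ratio of covered bp, Shh-/- over WT, for the listed genes with at least 1 kb in either list, 1 point per gene and 1 row per gene list; black bars are list medians, the dashed line is the median of all genes (0.26), and blue and orange points are past 2-fold lower and higher. Medians run from -0.43 for the Hedgehog feedback targets to 0.96 for the anterior genes; the muscle and sex-linked lists, with 1 tested gene each, are not drawn.

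Genes that mark other cell types also had more cover in the Shh-/- list as deposited, as did all genes together. Summed over all protein-coding genes, cover was 31554 kb in WT and 38195 kb in Shh-/-. The 8 muscle precursor genes, which mark cells that migrate into the bud from the somites, summed to 300 bp in WT and 3250 bp in Shh-/-, and 7 of them were at 0 in WT and 2 in Shh-/-. Pax3 had 0 and 450 bp and Lbx1 had 300 and 850 bp. Blood and endothelial genes summed to 12.1 kb in WT and 17.0 kb in Shh-/-, with 6 of 15 at 0 in WT and 4 in Shh-/-. Of the 7 tested, none was lower and Klf1 was higher (450 and 1000 bp), around a median of 0.51 (0.28 with equal numbers of peaks, where Klf1 was no longer higher, and 0.02 with equal covered length, where 1 gene was lower), and the defining genes Kdr, Sox17 and Runx1 were at 0 in each list. The apical ridge and ectoderm list summed to 20.8 and 26.0 kb, with 6 of 15 genes at 0 in WT and 1 in Shh-/-. Most of each sum, 12250 and 14550 bp, came from Lmx1b, a gene of the dorsal limb mesenchyme that marks neither ridge nor ectoderm. Of the 6 tested, 5 lay below the median of all genes and only Sp6 was higher (1050 and 2900 bp). The list median was 0.02 (-0.04 with equal covered length), and Fgf8, the ridge ligand, had 2150 and 1900 bp. Within 10 kb Fgf8 had 600 and 500 bp, and Fgf17, Krt18 and Epcam had 0 bp in each list. Of the tested genes in this list, only Lmx1b had a peak at its own promoter. As at Gli1, the wider windows include neighbouring genes. With equal covered length the Shh-/- sums were 1.15 kb for muscle, 11.5 kb for blood and endothelium and 23.6 kb for ridge and ectoderm. For all protein-coding genes the Shh-/- sum was then 32102 kb. The limb label was met by cover at Tbx5, Prrx1 and the Hox clusters in each list. The part of these cell types in the differences above was not tested.

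Sex-linked genes differed between the lists as well. The Y-linked genes Ddx3y, Uty, Kdm5d and Eif2s3y had 0 bp in WT, and 450, 450, 100 and 250 bp in Shh-/-, where Ddx3y and Uty share 1 peak. Xist, which is transcribed from the inactive X chromosome, had 2850 bp in WT and 900 bp in Shh-/-, and all the Shh-/- peaks there lay at the neighbouring Jpx. Sry, against this, had a 350 bp peak in WT and none in Shh-/-. The Y chromosome held 8 WT and 22 Shh-/- peaks. Of 223 tested X-linked genes, 7 (3.14%) were lower and 28 (12.6%) higher, against 85 (0.729%) and 1102 (9.45%) of 11667 autosomal genes. Of the 10 lower genes named next, 2 are X-linked, Pls3 and Gm26992. Embryo sex was not given in the labels used here, and its part in these differences was not tested.

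The 10 genes with the largest deficit in bp in Shh-/-, past 2-fold and with windows that do not overlap, included Ptch1, Ccnd1, Hoxd1 and Cdk6. They were also past 2-fold with equal numbers of peaks, which holds for every lower gene by construction. The others were Coa7 (4500 to 2200 bp), Adamts1, a secreted protease (3400 to 1250 bp), Ints1 (2950 to 850 bp), Ifnar1 (3800 to 1800 bp), Pls3 (2700 to 700 bp) and Gm26992, which overlaps Xist (2600 to 900 bp). At Adamts1 the whole difference lay within 10 kb of the gene, and 4 of 8 WT peaks were unmatched, against 36.6% of all WT peaks. At Coa7 it lay in distal peaks (3150 to 1000 bp), the largest being the 1100 bp WT peak near Shisal2a. At Ints1 the WT cover was more than 10 kb away, and within 10 kb the order turned, with 0 bp in WT and 400 bp in Shh-/-.

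The 10 genes with the largest excess in Shh-/- differed by more bp. Col1a2, a type I collagen gene of connective tissue, had 4400 bp in WT and 14450 bp in Shh-/- (log2 1.69), and all of its 17 WT peaks were shared. An 1800 bp Shh-/- peak over its start had no WT peak, and the remainder lay upstream, among others from -20.8 to -14.8 kb, and past its 3′ end. Kifap3 had 1400 and 8600 bp (2.54), of which distal peaks made up 700 and 7500 bp, with its widest group inside an intron from 64.1 to 66.6 kb. Dclk1 had 2250 and 10769 bp (2.21), most of it inside the gene, and the window of Ext2, which includes Alx4, had 3300 and 11900 bp (1.82). The window of Lrba, which includes Mab21l2, had 2300 and 10250 bp (2.11). Smyd3 had 6300 and 14650 bp, Cpa5 4200 and 11850 bp, Actrt2, whose window includes the start of Prdm16, 5000 and 12150 bp, Synpo 4900 and 11750 bp, and Usp29 4000 and 10800 bp. In all 10 windows distal peaks gave most of the difference. At Cpa5 the 36 Shh-/- peaks were all distal, and at Usp29 promoter cover was 1750 and 1500 bp.

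Promoters were mostly shared when read as present or absent. Of 21826 protein-coding genes, 9297 (42.6%) had a promoter peak in each list, 365 (1.67%) in WT only, 1235 (5.66%) in Shh-/- only and 10929 (50.1%) in neither. Of the listed genes, those with a promoter peak in WT only were 2 feedback targets, 2 5′ Hox genes, 1 posterior gene and 1 sex-linked gene. Those with one in Shh-/- only were 4 BMP and cartilage genes, 2 posterior genes, 2 ridge and ectoderm genes, 2 blood and endothelial genes, 3 sex-linked genes and 1 anterior gene. All 10 broadly active genes, all 11 FGF genes and 9 of 10 proximal genes had a promoter peak in each list.

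The short sequences named above were counted in the 300 bp windows of all peaks. The whole GLI sequence lay in 0.281% of the 28142 distal and 0.258% of the 29027 promoter windows of both lists together. Among distal windows it lay in 0.450% of WT peaks without a Shh-/- peak (32 of 7116, 0.319 to 0.634%), 0.242% of WT peaks with one (11 of 4547, 0.135 to 0.433%) and 0.182% of Shh-/- peaks without a WT peak (22 of 12118, 0.120 to 0.275%). In matched Shh-/- peaks the share was 0.321% (14 of 4361, 0.191 to 0.538%). The intervals of the unmatched WT and unmatched Shh-/- peaks did not overlap, and all other pairs did. With the first 8 letters alone, a choice made after these counts were seen, the shares were 1.05% (0.842 to 1.32%), 1.03% (0.778 to 1.37%) and 0.685% (0.553 to 0.848%), and the intervals of unmatched WT and unmatched Shh-/- peaks overlapped. The repeat on chromosome 4 was 1 of 2 unmatched WT windows with several copies. In promoter windows the GLI shares were 0.243%, 0.255% and 0.180% in the same order.

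CCAATAAA lay in 1.14% of distal windows of unmatched WT peaks, 1.10% of matched WT peaks and 1.07% of unmatched Shh-/- peaks, against 1.09% of all distal windows. CATCTG lay in 23.5%, 20.7% and 23.0%, against 22.5% of all distal windows, and 11.2% of all promoter windows. In promoters it lay in 15.3% of unmatched and 10.3% of matched WT windows. Base composition differed along the same line, with a median GC content of 53.7% in unmatched and 64.0% in matched WT promoter windows, and 50.3% and 51.7% in distal windows. Its part in the sequence counts was not tested. A match in a window is a description of its letters and not evidence that a factor was bound there.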

How the data were processed

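H3K27ac MicroChIP-seq libraries and inputs of WT and Shh-/- forelimb buds were represented by 1 deposited peak list per genotype. The authors called peaks with CisGenome 2.1.0 on mm10, and the submitters' processing notes name Bowtie2 2.2.5. The methods describe 2 biological replicates, while in the labels each list belongs to replicate 1 and pooling is not stated. The deposited score is the largest value of the caller's statistic, by which the authors ranked peaks. The deposited fold is a log2 ratio over that genotype's own input, and the deposited −log10 of the smallest Poisson p-value was not analysed further. The deposited FDR (a q-value) reached 0.350 in WT and 0.186 in Shh-/-. These values were used only within a list. The methods give only a minimum number of reads for all libraries, and the depth of each is unknown here.

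Overlaps were found with pandas 2.3.3 and numpy 2.4.6 (Python 3.11.15) and Wilson intervals with scipy 1.17.1, taking positions as counted from 1, which the lists do not state. Genes and transcript starts came from GENCODE M21 (basic set), in which all 153 symbols of 14 gene lists were found. Cover is the union of peaks clipped to the gene span plus or minus 50 kb, and genes with at least 1 kb in either list were compared at a 2-fold threshold, with no test. Overlap and cover were tested on simulated data. The lists and members were chosen with earlier results of these data known. Genes outside the lists were named by a rule: the 10 largest differences in bp each way among genes past 2-fold with deposited and equal numbers of peaks, skipping a window that overlaps one already taken, the 10 least covered peaks of at least 2 kb, and the 5 best ranked unmatched promoter and distal peaks of each list. The Shh-/-;Gli3-/- list and the inputs were not used here. Some listed genes and some sequences are counted in the totals but not reported here. Alternatives were equal numbers of peaks, equal covered length, FDR below 0.05, autosomes, other overlaps, flanks of 10 and 100 kb, and numbers of peaks.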

Additional observations from a re-analysis of the deposited data

How the results depend on the processing

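No paired analysis was possible because the lists hold no values per replicate, although replicate numbers recur across genotypes, and leaving out replicates could not be run for the same reason. Shares in the order all WT, WT promoter, WT distal and all Shh-/- peaks found in the other list were 59.7, 81.4, 34.6 and 56.7% with equal numbers of peaks, 74.9, 89.0, 47.6 and 49.7% at an FDR below 0.05, 39.9, 58.7, 18.2 and 31.2% with reciprocal overlap of 50%, and 76.2, 95.2, 54.4 and 63.4% where gaps up to 500 bp counted as overlap. Promoter peaks stayed above distal peaks in each, and autosomes alone left all 4 shares within their intervals. The 92 lower genes became 169 with equal numbers of peaks, 430 with equal covered length and 484 when numbers of peaks (at least 4 in either list) replaced covered bp. The 1130 higher genes became 1718 at an FDR below 0.05, 457 with equal covered length and 1780 with numbers of peaks. The other settings left the counts within 1.5 times. Among the listed or named genes tested, the log2 ratio moved by less than 1.5-fold in 120 with equal numbers, 114 at an FDR below 0.05 and 106 within 10 kb. Past that size moved 3, 9 and 16 of them, and Ints1 turned to 2.32 within 10 kb. Causes were not tested, except that equal numbers of peaks and equal covered length remove only Shh-/- peaks by construction. With no depth per library, the power to call weak peaks in each genotype is unknown, and this limits every statement on an unmatched peak.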
